A study of Rattus norvegicus with 18 samples.

Results

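The comparison described here set neonatal rat cardiomyocytes held for 24 h in cardiac medium diluted with medium conditioned by stem cells against the same cells held for 24 h in the unconditioned diluent. It was chosen by the sample labels alone and holds 6 of the 18 samples of the series, 3 in conditioned and 3 in unconditioned medium. All cells came from ventricles of day 1 rats (n = 24), were purified on Percoll gradients, were plated in 100 mm dishes and had spent 24 h in cardiac medium beforehand. In both media groups the cardiac medium was diluted 50% with hESC medium, and FBS was kept at 5% and HS at 10%, so that the groups differed in whether the hESC medium had been conditioned by stem cells; the labels do not say which stem cell line was used, for how long it conditioned the medium, or what the hESC medium contained. The samples used for context were the 6 taken at 48 h in the same media and the 6 time zero samples, extracted without treatment after the first 24 h. The arrays were CodeLink arrays with 1 colour, in 2 designs. On the larger design lay 4 of the 6 samples at 24 h (2 conditioned, 2 unconditioned), together with 4 time zero and 4 samples at 48 h. The other 2 samples at 24 h, 1 conditioned and 1 unconditioned, were on the smaller design and were used for direction only. The labels name no separate cell preparations, so the p-values measure only the spread between these arrays, which may be technical, and they do not say which dish lies behind which array.

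Neonatal cardiomyocytes are contractile cells that still hold part of the fetal gene programme: embryonic and slow isoforms of sarcomere proteins are present beside the adult cardiac ones, and cell division ceases soon after birth. Their sarcomeres are built of thick filaments (myosins, with the M-band as cross-link) and thin filaments (actin, tropomyosin and the troponins), anchored at Z-discs, and contraction is driven by calcium released from the sarcoplasmic reticulum. Cytokines of the interleukin-6 family act on cardiomyocytes through receptors that pair a ligand-binding subunit such as LIFR or OSMR with gp130 (Il6st), and activate the JAK kinases and the transcription factor STAT3. By its title, the series asks whether factors secreted by stem cells make differentiated cardiomyocytes proliferate.

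Each array was scaled to a common median, values and those under 4.84 intensity units were raised to that floor. Each change is a difference in log2 intensity ± SE, from which the median difference over all probes was subtracted. A gene was called where its limma adjusted p was under 0.05 over all 23694 probes tested. With 2 arrays against 2 the precision is limited by the number of arrays. The raw medians were 97.6 and 93.9 on the conditioned arrays and 71.2 and 70.3 on the unconditioned arrays, with 16.8% and 17.9% of probes at the floor in conditioned medium and 17.1% and 18.9% in unconditioned medium. Over all probes the log2 values correlated with r of 0.969 between the conditioned arrays and 0.953 between the unconditioned arrays, and with r from 0.947 to 0.962 between the media. Of the 12 arrays of the larger design, 3 stood apart by a narrow spread of values (upper over lower quartile 22.4 to 25.7, against 38.7 to 47.8 on the other 9). They were replicates 4 and 5 of time zero and the second unconditioned replicate at 48 h. None was a 24 h array, but all 3 entered the estimate of the spread.

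The defining markers of cardiomyocytes were abundant in both media. Tnnt2, cardiac troponin T, was read at 28368 and 23048 in conditioned medium and 36743 and 26400 in unconditioned medium, and the atrial peptide Nppa at 31465 and 26718 in conditioned medium and 34481 and 36342 in unconditioned medium. All 9 measured cardiomyocyte markers of 11 listed were detected in both media. Their summed level was 184180 and 168092 on the conditioned arrays and 243665 and 241054 on the unconditioned arrays, so that it was lower in conditioned medium without overlap, while none of the 9 was called. Of all genes tested 21.5% were lower without overlap. Among the 10% of genes with the highest level 58.0% had a change below the median of all probes. The part of level in this sum was not tested. Smooth muscle and pericyte markers, 8 of 8 measured, summed to 39529 and 42257 in conditioned medium and 60879 and 55230 in unconditioned medium, again without overlap. The sums of the fibroblast markers (8 of 9 measured; 4403 and 5935 in conditioned, 5228 and 6124 in unconditioned medium), endothelial markers (7 of 8; 1978 and 2171 in conditioned, 1811 and 2194 in unconditioned medium) and leukocyte markers (9 of 9; 1450 and 1552 in conditioned, 1391 and 1778 in unconditioned medium) overlapped between the media. Erythroid markers, 2 of 4 measured, summed to 125 and 117 in conditioned medium and 170 and 146 in unconditioned medium, without overlap. Of the defining leukocyte markers Fcer1g was at the floor on all 4 arrays, and the complement genes C1qa and C1qb were at the floor on both conditioned arrays, against 41.9 and 36.6 for C1qa and 9.32 and 6.75 for C1qb in unconditioned medium. Ptprc went the other way, with 19.9 and 12.5 in conditioned medium and the floor on both unconditioned arrays. The remaining leukocyte markers, Tyrobp (0.03), Cd68 (0.17), Csf1r (-0.19), Aif1 (-0.19) and Cd74 (-3.51), were not called. Cd74 was called lower, however, once the 3 arrays of narrow spread were left out. These are levels in a bulk sample, in which fewer cells of a type and less RNA per cell cannot be told apart, and the part of such shifts in the gene changes below was not tested.

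At 24 h the genes higher in conditioned medium included the secreted lectins Reg3b and Lgals3, the chemokine Cxcl11 and the potassium channel gene Kcnj8, and those lower included the myosins Myh3 and Myh2 and the troponin Tnnt1. Of 9953 genes tested, each through its brightest probe, 31 were called (0.311%), 15 of them higher (0.151%) and 16 lower (0.161%) in conditioned medium. Without the 3 arrays of narrow spread 200 genes were called higher (2.01%) and 199 lower (2%). Over probes, 58 of 23694 were called (0.245%), 30 higher (0.127%) and 28 lower (0.118%), and 1254 had an unadjusted p under 0.05 (657 higher, 597 lower). The changes of the called genes ran from 1.83 to 6.19 among those higher and from -2.06 to -4.92 among those lower, so that the smallest called change, that of Bhlhe41, was 3.55-fold. With each 24 h array left out in turn 7 of the 31 genes were called every time, namely Reg3b, Thbd, Myh3, Myh2, Tril, Atp12a and Prkag2, and the other 24 lost their call at least once. A further 24 genes changed by over 3 log2 units and were not called. In 14 of these the arrays of 1 medium lay over 100-fold apart, as for the cytochrome oxidase subunit Cox8b, which was read at 5281 and 4631 in conditioned medium and at the floor of 4.84 and 6121 in unconditioned medium. In the called genes the arrays of 1 medium lay at most 4.40-fold apart.

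**Figure D1:**
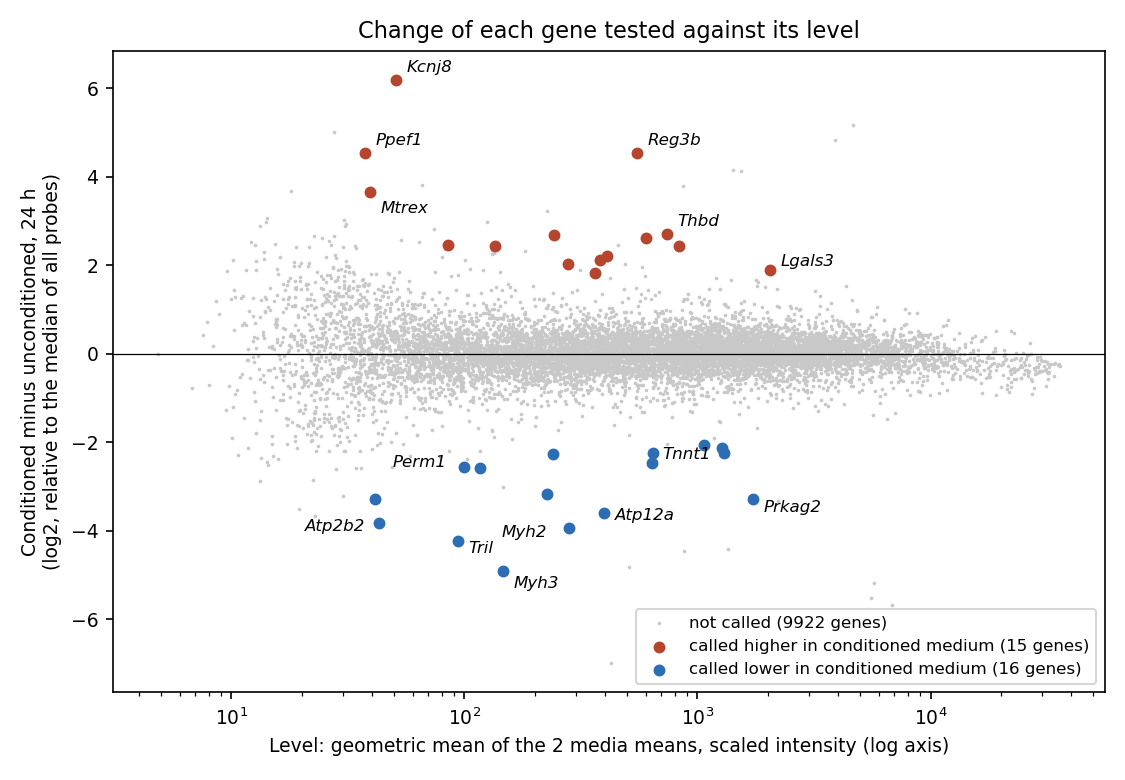
Log2 change between conditioned and unconditioned medium at 24 h, relative to the median of all probes (vertical axis), against the level of the gene (horizontal axis, log scale), 1 point for each of 9953 genes. The 15 genes called higher (red) and the 16 called lower (blue) have mean levels below those of the brightest genes, and the grey points far from 0 are genes whose arrays of 1 medium disagreed or whose spread was too large for a call.

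Reg3b, a secreted C-type lectin of the acute phase response that in mouse hearts attracts macrophages after injury, had the most firmly supported increase. Its probe (279110) read 2377 and 2915 in conditioned medium, against 130 and 98.9 in unconditioned medium and 359, 134, 127 and 161 at time zero. Both conditioned arrays lay far above the unconditioned and time zero arrays, and the change was 4.53 ± 0.47 (adjusted p = 1.8e-04), which is 23.0-fold. Bcl3, a nuclear cofactor of NF-kappaB that also belongs to the STAT3 response, read 801 and 948 in conditioned medium and 155 and 227 in unconditioned medium (2.21 ± 0.42, adjusted p = 0.028). Osmr, the receptor subunit for oncostatin M, was at the floor on both unconditioned arrays and read 151 and 161 in conditioned medium. Its fitted change of 5.00 ± 1.12 depends on the floor and was not called (adjusted p = 0.085). Cebpd, a transcription factor of the acute phase response, read 1039 and 1164 in conditioned medium and 337 and 310 in unconditioned medium (1.76 ± 0.38, adjusted p = 0.073), again without overlap and without a call.

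Among the 23 tested genes of gp130-STAT3 signalling and the acute phase (34 listed), Reg3b and Bcl3 were called higher and none lower, beside 0.151% and 0.161% of all genes. The ligands Lif and Il6 stood at -0.35 and 0.90, the receptor chains Lifr and Il6st (gp130) at -0.82 and 0.15, the kinases Jak1 and Jak2 at 2.60 and 0.82, Stat3 itself at 0.91, and the feedback inhibitor Socs3, a common early target of STAT3, at -0.02. None of these was called. The list median was 0.15 with 13 of 23 genes above the median of all probes, against a median of 0.01 and 5080 of 9953 for all genes tested. In 12 of the 23 the conditioned arrays were higher without overlap and in 4 lower, beside 24.5% and 21.5% of all genes. Once the 3 arrays of narrow spread were left out, 7 of the 23 were called higher (Reg3b, Osmr, Bcl3, Cebpd, Junb, Timp1 and Stat3) and none lower, beside 2.01% and 2% of all genes.

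The chemokine Cxcl11, which draws T cells through CXCR3, read 562 and 556 in conditioned medium, against 167 and 112 in unconditioned medium (2.02 ± 0.36, adjusted p = 0.017), and a second probe gave 2.20 (adjusted p = 0.016). At time zero it read 260, 304, 193 and 274, between the media. Promoters are shown for Reg3b, the gene with the most firmly supported increase, and for Cxcl11, because these are the called higher genes whose promoter holds the STAT motif TTCNNNGAA. Each is 300 bases from 250 before to 50 after the gene start, 5′ to 3′ on the strand of the gene, from RefSeq on build GRCr8. The capitals mark TTCNNNGAA and the TATA box letters TATAAA, and in Cxcl11 also the AP-1 motif TGANTCA and a match to the NF-kappaB motif. The Reg3b window is chr4:112419526-112419825 (+), and the Cxcl11 window is chr14:15973478-15973777 (+).
Reg3b: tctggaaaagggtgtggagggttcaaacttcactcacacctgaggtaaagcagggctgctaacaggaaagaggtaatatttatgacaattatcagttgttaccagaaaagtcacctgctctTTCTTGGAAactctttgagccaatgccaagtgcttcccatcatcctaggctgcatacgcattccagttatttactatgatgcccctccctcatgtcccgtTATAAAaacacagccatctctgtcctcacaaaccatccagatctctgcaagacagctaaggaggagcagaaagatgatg
Cxcl11: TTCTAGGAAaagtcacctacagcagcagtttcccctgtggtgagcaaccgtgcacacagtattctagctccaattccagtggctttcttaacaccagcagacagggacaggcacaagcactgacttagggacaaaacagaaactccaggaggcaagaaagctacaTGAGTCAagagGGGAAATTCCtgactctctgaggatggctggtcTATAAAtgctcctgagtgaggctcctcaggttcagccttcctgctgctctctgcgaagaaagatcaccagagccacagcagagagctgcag
In Reg3b the STAT match began 129 bases before the start and the TATA box 29 bases before it. In Cxcl11 the STAT match began 250 bases before the start, the AP-1 match 85, the NF-kappaB match 74 and the TATA box 41 bases before it. The search covered both strands, and TTCNNNGAA, TGANTCA and the MEF2 and NF-kappaB motifs can match both strands at 1 place. Of the 15 genes called higher 11 had a promoter in the table, and 2 of these held TTCNNNGAA, as did 1 of 13 promoters of lower genes (Tril), 8.68% of all 27457 promoters and 6.71% of the 8292 promoters of genes tested. TGANTCA was found in 3 of the 11 (Cxcl11, Dclk1 and Fam110c), in none of the 13, in 7.33% of all promoters and in 4.85% of those of genes tested. The NF-kappaB motif was found in 4 of the 11 (Bcl3, Bhlhe41, Cxcl11 and Kcnj8, the last just after the gene start) and in 1 of the 13 (Atp12a). It was in 7.60% of all promoters and in 9.72% of those of genes tested. These matches describe letters in a short window and are not binding sites.

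Other genes of inflammation and the cell surface moved singly. Lgals3, galectin-3, a secreted lectin of activated macrophages and of injured muscle, read 3954 and 3970 in conditioned medium, against 1057 and 1068 in unconditioned medium (1.89 ± 0.34, adjusted p = 0.018). Thbd, thrombomodulin, the anticoagulant thrombin receptor, read 1788 and 2009 in conditioned medium, 269 and 310 in unconditioned medium, and 72.0, 83.7, 59.3 and 73.2 at time zero (2.70 ± 0.35 between the media, adjusted p = 0.0011). A second probe of Thbd gave 0.42 (218 and 238 in conditioned, 169 and 169 in unconditioned medium), so the probes of this gene disagreed in size. Tril, an accessory protein of Toll-like receptor 4, fell. It read 9.47 and 39.2 in conditioned medium, against 358 and 362 in unconditioned medium and 58.1, 37.2, 37.7 and 45.7 at time zero (-4.23 ± 0.58, adjusted p = 0.0024). The change was -2.52 with a pseudocount in place of the floor, still called, and -2.12 (adjusted p = 0.78) with its probes averaged, where the second probe was at the floor on all 4 arrays. In the list of chemokines, cytokines and adhesion genes 2 of 28 tested genes were thus higher and 1 lower, beside 0.151% and 0.161% of all genes, and the median was -0.07. Tlr2 (1.89 ± 0.42, adjusted p = 0.082), the adhesion molecule Icam1 (1.40) and the chemokine genes Ccl2 (-0.09), Cxcl1 (-0.50) and Ccl20 (-0.90) were not called. With the 3 narrow-spread arrays left out, 4 of the 28 were higher (Tlr2 and Icam1 joined) and 2 lower (Ptgs2 joined), beside 2.01% and 2% of all genes.

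The interferon response list had the highest median of the 29 lists, 0.35, with 14 of 19 tested genes above the median of all probes and 0 called in limma (and 0 without the 3 arrays of narrow spread). Its genes with the largest changes were dim: Ifit3 read 60.7 and 40.7 in conditioned medium and 7.86 and 21.3 in unconditioned medium (1.93 ± 1.11), and Oasl 72.5 and 57.6 in conditioned medium and 18.1 and 24.6 in unconditioned medium (1.61 ± 0.86). Cxcl10 stood at 0.35 and Isg15 at 0.05.

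The largest fitted increase belonged to Kcnj8, which encodes Kir6.1, the pore of an ATP-sensitive potassium channel best known from vascular smooth muscle. It read 442 and 420 in conditioned medium, against 4.84 (the floor) and 7.13 in unconditioned medium, with 8.26, 21.6, 72.9 and 4.84 at time zero. The change was 6.19 ± 1.09 (adjusted p = 0.017), and a second probe gave 6.59 (645 and 773 in conditioned, 10.9 and 4.84 in unconditioned medium, adjusted p = 0.0025), so both probes were called. The size depends on the floor and was 3.20 with a pseudocount in its place. The partner subunit genes Abcc9 (0.89) and Abcc8 (-1.05) and the related pore gene Kcnj11 (-0.67) were not called.

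A pair of phosphatase genes rose. Ppef1, a calcium-binding serine/threonine phosphatase, read 161 and 185 in conditioned medium and 11.5 and 4.84 in unconditioned medium, and was at the floor on all 4 time zero arrays (4.52 ± 0.85, adjusted p = 0.026); the floor sets how large this change is. Ppp2r2b, a regulatory B subunit of phosphatase 2A, read 1408 and 1533 in conditioned medium, 191 and 301 in unconditioned medium and 368, 92.4, 113 and 287 at time zero (2.61 ± 0.53, adjusted p = 0.049). For each gene both conditioned arrays stood above the unconditioned and time zero arrays. In the list of phosphatases and their regulators 2 of 20 tested genes were thus higher and none lower, beside 0.151% and 0.161% of all genes. The other 18 ran from -1.08 (Ppp1r1a) to 0.41 (Ppp1cc) without a call, with a list median of 0.02. When the 3 arrays of narrow spread were omitted, Ppp1r1a and Rcan2 were called lower beside the called pair, 2 of 20 each way, against 2% and 2.01% of all genes.

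Among regulators of transcription, Runx1, known from blood development and re-expressed in stressed cardiomyocytes, read 709 and 881 in conditioned medium, 218 and 152 in unconditioned medium and 84.8, 56.9, 56.2 and 93.8 at time zero (2.11 ± 0.37, adjusted p = 0.016). Bhlhe41, a repressor of the circadian clock, read 680 and 683 in conditioned medium and 165 and 220 in unconditioned medium (1.83 ± 0.36, adjusted p = 0.039). Its paralog Bhlhe40 stood at 0.52, and the clock genes Per1, Per2, Dbp and Nr1d1 at -0.19, -0.42, -0.36 and -0.17, none of them called.

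The remaining higher genes have no list in common. Dclk1, a microtubule-associated kinase, read 1836 and 2032 in conditioned medium and 322 and 391 in unconditioned medium (2.43 ± 0.35, adjusted p = 0.0033), but its 3 other probes gave -0.63, -0.17 and 1.72, and with its probes averaged it was not called (0.84, adjusted p = 0.84). Cyb561, a membrane cytochrome of secretory vesicles, read 634 and 585 in conditioned medium and 78.7 and 114 in unconditioned medium (2.67 ± 0.43, adjusted p = 0.010). Mtrex, an RNA helicase of the nuclear exosome, read 122 and 154 in conditioned medium, against 8.06 and 14.5 in unconditioned medium and 58.1, 49.7, 107 and 168 at time zero (3.65 ± 0.62, adjusted p = 0.014). Its call was lost with a pseudocount (1.64, adjusted p = 0.086) and with its probes averaged (1.90, adjusted p = 0.95), the second probe being near the floor in both media. Rhbdl3, a rhomboid family member, and Fam110c were higher by 2.44 ± 0.40 (adjusted p = 0.011) and 2.46 ± 0.42 (adjusted p = 0.014). Fam110c stood at 1.53 with a pseudocount. For Mtrex, Rhbdl3 and Fam110c the unconditioned arrays lay below all time zero arrays.

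**Figure D2:**
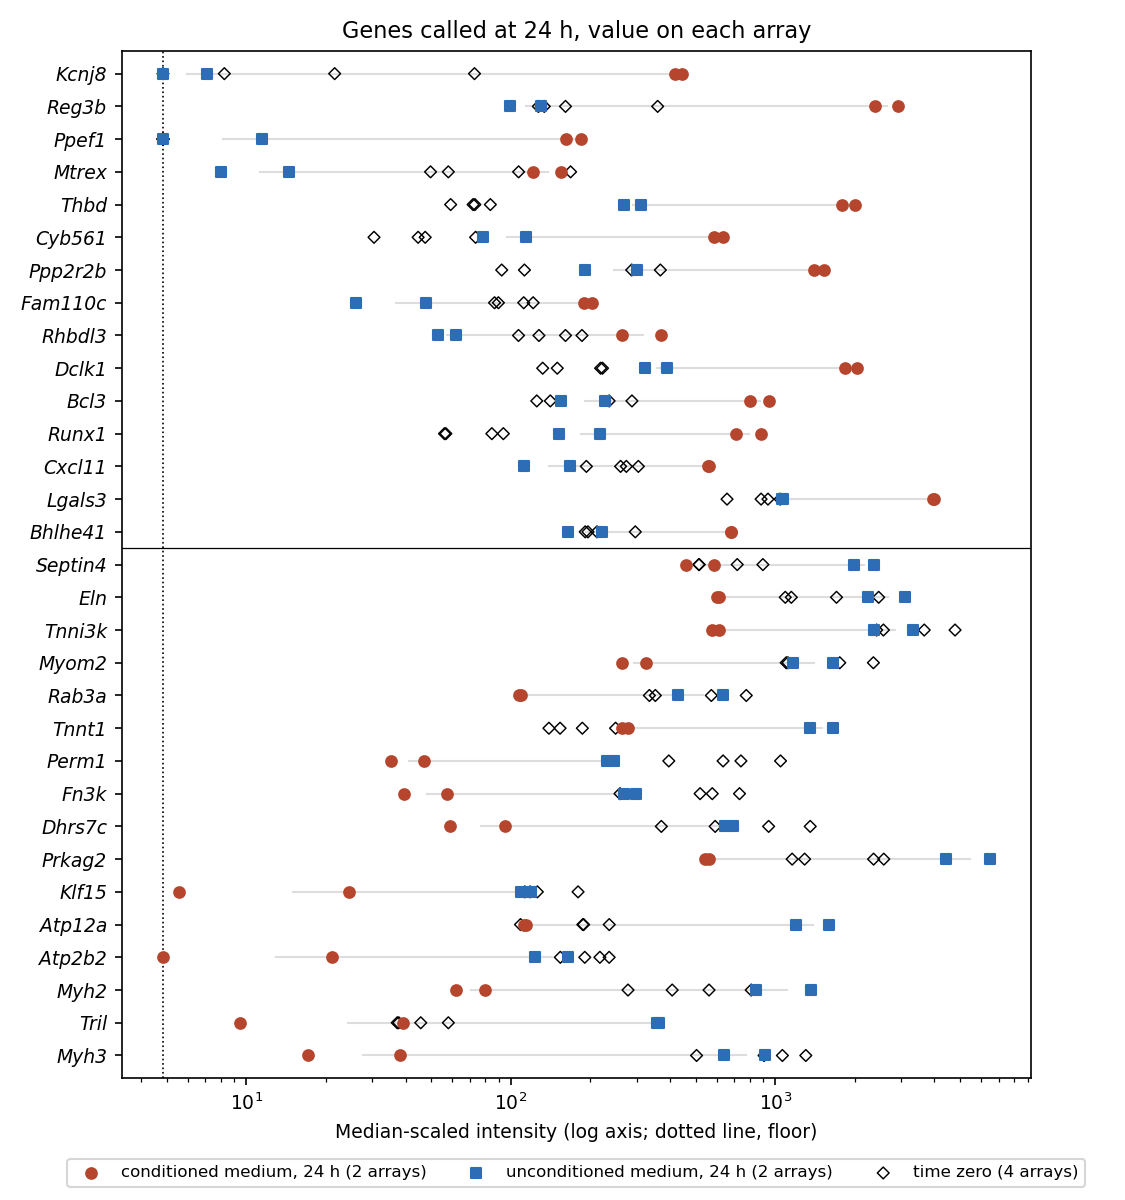
Scaled intensity (horizontal axis, log scale) of the 31 genes called at 24 h on each array: conditioned medium (red circles, 2 arrays), unconditioned medium (blue squares, 2 arrays) and time zero (open diamonds, 4 arrays). Genes are ordered by their change, those called higher above the line and those called lower under it, and the dotted line is the floor of 4.84; the media do not overlap in any of the 31 genes, and the time zero arrays lie near the unconditioned ones for some genes and near the conditioned ones for others.

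Sarcomere genes made up the clearest group among those that fell. Myh3, the embryonic myosin heavy chain, read 38.0 and 17.2 in conditioned medium, against 641 and 915 in unconditioned medium and 1065, 504, 908 and 1306 at time zero. The conditioned arrays lay far under the unconditioned and time zero arrays, with a change of -4.92 ± 0.45 (adjusted p = 4.6e-05), which is 30.2-fold. Myh2, a fast skeletal myosin heavy chain, read 61.9 and 79.6 in conditioned medium, 850 and 1369 in unconditioned medium and 562, 278, 408 and 812 at time zero (-3.95 ± 0.45, adjusted p = 3.0e-04). The abundant cardiac chain Myh7 was at 31310 and 23671 in conditioned medium and 31198 and 43039 in unconditioned medium (-0.44 ± 0.42, adjusted p = 1.00). The probe sequences were not analysed here, and signal from near-identical myosin transcripts cannot be told apart.

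Of the 16 tested genes of the thick filament and M-band (23 listed) 3 fell (Myh3, Myh2 and Myom2) and none rose, beside 0.161% and 0.151% of all genes, and 14 of 16 lay below the median of all probes. The list median was -0.70. Myom2, a protein of the M-band, read 263 and 324 in conditioned medium and 1166 and 1648 in unconditioned medium (-2.26 ± 0.41, adjusted p = 0.021). The fast skeletal light chain Myl11 stood at -3.66 (adjusted p = 0.097), Myl1 at -1.43, Myh7b at -1.44, the atrial light chain Myl7 at -0.61, the ventricular light chains Myl2 and Myl3 at -0.25 and -0.24, and myosin-binding protein C of the heart, Mybpc3, at -0.40. The members above the median were the skeletal forms Mybpc1 (0.29) and Mybpc2 (0.84). Without the 3 arrays of narrow spread 7 of the 16 fell (Myl11, Myh7b, Myl1 and Unc45b joined) and none rose, beside 2% and 2.01% of all genes.

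Of the 26 tested thin filament and Z-disc genes (30 listed), 1 fell and none rose, beside 0.161% and 0.151% of all genes, and 23 lay below the median of all probes. Tnnt1, the slow skeletal troponin T found in embryonic hearts, read 277 and 264 in conditioned medium, 1350 and 1650 in unconditioned medium and 187, 139, 154 and 249 at time zero (-2.47 ± 0.40, adjusted p = 0.010). Cardiac troponin T (Tnnt2) was at -0.29 ± 0.40 and cardiac troponin I (Tnni3) at -0.50, while titin (Ttn) stood at -0.93, the titin cap Tcap at -0.89 and the Z-disc gene Ldb3 at -0.94. Once the 3 arrays of narrow spread were left out, 5 of the 26 fell (Tnnt1, Ldb3, Ttn, Tcap and Myoz2) and Nebl rose, beside 2% and 2.01% of all genes. The list median was -0.50, and -0.24 with quantile normalization. In this list 16 of 26 genes, and in the thick filament list 7 of 16, were among the 10% of genes with the highest level, where the median of all genes was -0.06 and 58.0% lay below the median of all probes. The part of level in these list medians was not tested. Tnni3k, a heart-specific kinase that binds cardiac troponin I, belongs to no list and read 579 and 613 in conditioned medium, 2368 and 3309 in unconditioned medium and 3661, 2419, 2566 and 4787 at time zero (-2.24 ± 0.39, adjusted p = 0.016), with -2.06 (adjusted p = 0.057) on a second probe.

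Promoters of the lower muscle genes are shown for Myh3, which had the largest decrease, and Tnni3k, the called lower gene whose promoter holds a match to the MEF2 motif, bound by a transcription factor family of muscle. They are from the same RefSeq table, 5′ to 3′ on the strand of the gene, and the capitals mark TATAAA in Myh3 and the MEF2 match in Tnni3k. The Myh3 window is chr10:52268935-52269234 (+), and the Tnni3k window is chr2:246664900-246665199 (-).
Myh3: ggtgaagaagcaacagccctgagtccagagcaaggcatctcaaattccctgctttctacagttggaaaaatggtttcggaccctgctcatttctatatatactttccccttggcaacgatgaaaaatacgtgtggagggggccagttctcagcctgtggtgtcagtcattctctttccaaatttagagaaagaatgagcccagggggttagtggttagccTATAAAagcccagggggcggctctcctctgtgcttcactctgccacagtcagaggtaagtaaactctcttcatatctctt
Tnni3k: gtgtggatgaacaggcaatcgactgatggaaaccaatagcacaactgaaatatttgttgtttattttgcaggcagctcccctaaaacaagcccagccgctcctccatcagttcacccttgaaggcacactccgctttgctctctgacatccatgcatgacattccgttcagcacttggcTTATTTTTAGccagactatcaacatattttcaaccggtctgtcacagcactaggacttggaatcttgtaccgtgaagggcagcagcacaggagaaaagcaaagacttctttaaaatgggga
TATAAA began 30 bases before the start in Myh3, as it did in Myh2 and Tnnt1, so that 3 of 13 promoters of lower genes held it, against 2 of 11 of higher genes, 14.3% of all promoters and 7.53% of those of genes tested. The MEF2 match of Tnni3k began 71 bases before the start. It was the only one among the 13 promoters of lower genes and was absent from the 11 of higher genes, beside 3.37% of all promoters and 1.65% of those of genes tested. The CArG box, a motif of serum response factor, matched none of the 24, beside 1.64% of all promoters and 1.33% of those of genes tested.

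Calcium handling and excitation genes split. Of 33 tested (43 listed), 2 fell (Atp2b2 and Atp12a) and 1 rose (Kcnj8), beside 0.161% and 0.151% of all genes. Of the 33, 23 lay below the median of all probes, and the list median was -0.50. Atp12a, a proton-potassium ATPase, read 115 and 113 in conditioned medium, 1198 and 1593 in unconditioned medium and 189, 109, 187 and 236 at time zero (-3.61 ± 0.41, adjusted p = 3.0e-04). Atp2b2, a plasma membrane calcium pump, read 21.1 and 4.84 in conditioned medium, 124 and 164 in unconditioned medium and 236, 191, 154 and 217 at time zero (-3.83 ± 0.61, adjusted p = 0.010), and here too the floor sets the size. The main genes of calcium release and uptake in the heart were not called: the ryanodine receptor Ryr2 stood at -1.01, the calcium pump Atp2a2 at -0.78, its inhibitor phospholamban, Pln, at -0.41, the calcium buffers Casq2 and Hrc at -0.61 and -1.54, and triadin, Trdn, at 1.38. The gap junction gene Gja5 stood at 1.53 and Gja1 at 0.25. With the 3 narrow-spread arrays left out, 5 of the 33 were higher (Kcnj8, Gja5, Camk2n1, Trdn and Abcc9) and 7 lower (Hrc, Casq1, Jph2, Sln and Atp2a2 beside the called pair), against 2.01% and 2% of all genes.

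Several other genes that fell have roles in metabolism, a description made after their values were seen. Klf15, a glucocorticoid-induced factor that controls lipid and amino acid use in muscle, read 5.58 and 24.5 in conditioned medium, 119 and 110 in unconditioned medium and 180, 113, 118 and 126 at time zero (-3.30 ± 0.62, adjusted p = 0.026). With a pseudocount in place of the floor its change was -1.38 (adjusted p = 0.074), without a call. Perm1, an inducer of mitochondrial genes in muscle, read 47.2 and 35.1 in conditioned medium, 246 and 232 in unconditioned medium and 635, 1048, 396 and 742 at time zero (-2.56 ± 0.43, adjusted p = 0.013), and with a pseudocount -1.69 (adjusted p = 0.074), without a call. Prkag2, a regulatory subunit of the energy sensor AMP kinase, read 563 and 542 in conditioned medium, 4436 and 6478 in unconditioned medium and 2355, 1159, 1292 and 2574 at time zero (-3.29 ± 0.42, adjusted p = 0.0012). Its other probes gave -0.93 and -0.97, of the same sign and not called, and with its probes averaged the change was -1.72 (adjusted p = 0.090). Dhrs7c, an oxidoreductase of the sarcoplasmic reticulum in striated muscle, read 95.2 and 58.7 in conditioned medium and 647 and 693 in unconditioned medium (-3.17 ± 0.56, adjusted p = 0.018). Fn3k, which repairs glycated proteins, read 39.3 and 57.5 in conditioned medium and 267 and 299 in unconditioned medium (-2.58 ± 0.45, adjusted p = 0.016), a call that was lost with a pseudocount.

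The lists that hold Perm1 and Klf15, and the other lists of metabolism, had few or no other calls over all 12 arrays; Prkag2, Dhrs7c and Fn3k belong to no list. Among 31 tested genes of fatty acid oxidation and PPAR targets Perm1 was the 1 called (lower, beside 0.161% of all genes), with a list median of -0.16. When the 3 arrays of narrow spread were omitted, 2 were called higher (Plin2 and Angptl4) and 2 lower (Perm1 and Ppargc1b), beside 2.01% and 2% of all genes. Ppargc1a and Ppargc1b, the coactivators of mitochondrial genes, stood at -0.46 and -0.94, the carnitine transferase Cpt1b at -0.21, and the PPAR target Angptl4 at 1.31 ± 0.47 (adjusted p = 0.61). Of 43 respiratory chain genes none was called in limma, and 40 lay below the median of all probes. Their median was -0.37, or -0.20 with quantile normalization, and 36 of the 43 were among those 10% of highest level. The 29 ribosomal protein genes had a median of -0.14, which turned to 0.12 with quantile normalization, and none was called. Rps19 (-0.92) was called lower once the 3 arrays of narrow spread were left out, 1 of 29 beside 2% of all genes. Of 14 cardiac transcription factors Klf15 fell, beside 0.161% of all genes, and 11 lay below the median of all probes (list median -0.38). Gata4 stood at -0.59, Nkx2-5 at -0.41, Tbx5 at -0.36 and Mef2a at -0.41, none of them called. Among 19 genes of the glucocorticoid response and the clock, Klf15 was lower and Bhlhe41 higher, beside 0.161% and 0.151% of all genes. The glucocorticoid targets Fkbp5, Tsc22d3 and Per1 stood at 0.40, -0.25 and -0.19.

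Eln, elastin, the elastic fibre protein of matrix, read 615 and 603 in conditioned medium, 2238 and 3108 in unconditioned medium and 2462, 1151, 1092 and 1706 at time zero (-2.12 ± 0.42, adjusted p = 0.044), a call that was lost with a pseudocount. It was the 1 called member of 27 tested fibroblast and matrix genes, beside 0.161% of all genes called lower. Of the 27, 24 lay below the median of all probes (list median -0.23). Fn1, fibronectin, went against most of the list, with 7089 and 7811 in conditioned medium and 2466 and 2624 in unconditioned medium, but was not called in the main fit (1.54 ± 0.37, adjusted p = 0.13). It was called higher without the 3 arrays of narrow spread, with array weights and with only the groups compared. The same held with quantile normalization, cyclic loess and scaling to the 75th percentile. In these settings 0.633% to 2.01% of all genes were called higher. Rab3a, a GTPase of vesicle release, read 108 and 110 in conditioned medium and 430 and 634 in unconditioned medium (-2.27 ± 0.43, adjusted p = 0.027), and a second probe gave -4.91 (at the floor on both conditioned arrays, 120 and 174 in unconditioned medium, adjusted p = 3.0e-04). With a pseudocount the first probe stood at -1.87 (adjusted p = 0.064), without a call. Septin4, a filament-forming GTPase, read 588 and 462 in conditioned medium, 1983 and 2362 in unconditioned medium and 898, 516, 515 and 719 at time zero (-2.06 ± 0.37, adjusted p = 0.018).

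Of the smooth muscle and pericyte markers, whose summed level was lower in conditioned medium, 10 of 12 tested genes lay below the median of all probes. Their median was -0.43, and none was called by its brightest probe. Calponin, Cnn1, read 966 and 1051 in conditioned medium and 3630 and 2826 in unconditioned medium (-1.68 ± 0.35, adjusted p = 0.057), and a second, dimmer probe of it was called (-2.11, adjusted p = 0.034). Myh11 stood at -1.14, Tagln at -0.90 and Acta2 at -0.45, while the pericyte genes Pdgfrb and Cspg4 stood at 0.06 and 0.22. Without the 3 arrays of narrow spread Cnn1, Myh11, Myl9 and Tagln were called lower, 4 of 12 beside 2% of all genes. Acta2, Tagln and Cnn1 are also expressed by immature cardiomyocytes and myofibroblasts, so that the list does not mark 1 cell type here.

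**Figure D3:**
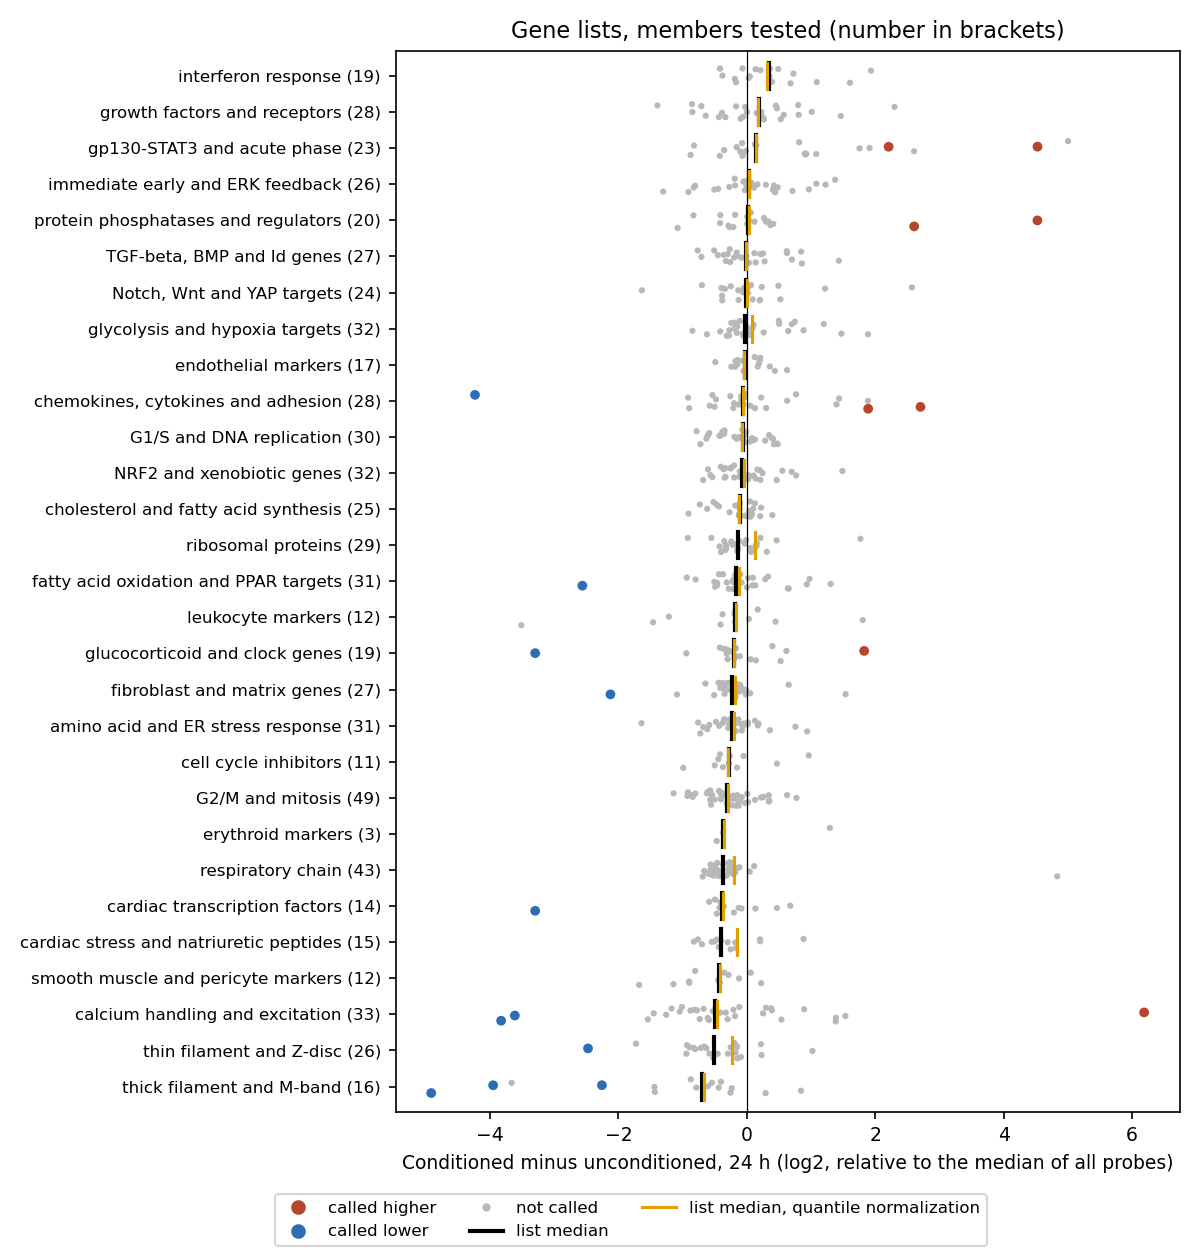
Log2 change between conditioned and unconditioned medium at 24 h, relative to the median of all probes, of each tested member of the 29 gene lists, ordered by list median from the top (interferon response, 0.35) to the bottom (thick filament and M-band, -0.70). Black bars are list medians and yellow bars the same with quantile normalization; red and blue points are called genes, and most lists are centred near 0 with a few members far out, while for the respiratory chain and ribosomal proteins the yellow bar lies right of the black one, past 0 for the ribosomal proteins.

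For the question named by the series' title, proliferation, no tested gene of the G2/M or G1/S lists was called higher in conditioned medium at 24 h. None of 49 tested G2/M and mitosis genes was called in limma, and 39 of 49 lay below the median of all probes. Their median was -0.30 (-0.30 also with quantile normalization), against 0.01 for all genes. Mki67, a marker of cycling cells, read 611 and 553 in conditioned medium, against 908 and 778 in unconditioned medium (-0.54 ± 0.38, adjusted p = 1.00). The mitotic cyclin Ccnb1 read 725 and 844 in conditioned medium and 1012 and 1291 in unconditioned medium (-0.56 ± 0.40, adjusted p = 1.00), and the mitotic kinase Cdk1 2931 and 3181 in conditioned medium and 3220 and 4985 in unconditioned medium (-0.40 ± 0.48, adjusted p = 1.00). Each was lower in conditioned medium without overlap between the arrays, as were 24 of the 49 genes and 21.5% of all genes. Pbk (-0.93), Nusap1 (-0.87) and Espl1 (-1.14), all of mitosis, had the smallest p of the list. Once the 3 arrays of narrow spread were left out, Pbk, Nusap1 and Kif23 were called lower, 3 of 49 beside 2% of all genes. Time zero means lay under both media for Mki67 (507), Ccnb1 (606) and Cdk1 (2046), but the time zero arrays overlapped the conditioned ones. Their highest values were 658 for Mki67, 745 for Ccnb1 and 3230 for Cdk1. Relative to time zero Mki67 stood at 0.09 ± 0.33 in conditioned and 0.61 ± 0.33 in unconditioned medium. In the same order Ccnb1 stood at 0.25 ± 0.34 and 0.79 ± 0.34, and Cdk1 at 0.53 ± 0.42 and 0.92 ± 0.42. None of these differences from time zero was called. On the smaller design, with 1 array of each medium and no test, 8 of 19 genes of the list lay above the median and 11 below. There Cdk1 stood at 1.52, opposite in sign to the larger design, and Mki67 at -0.10.

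The 30 genes of G1/S and DNA replication had a median of -0.07 and none was called. In 6 of them the conditioned arrays were higher without overlap and in 8 lower, beside 24.5% and 21.5% of all genes. Cyclin D1, Ccnd1, a growth factor target, read 3983 and 4866 in conditioned medium and 2868 and 3913 in unconditioned medium (0.38 ± 0.41, adjusted p = 1.00), and Ccnd3 stood at -0.72. With the 3 narrow-spread arrays left out, Ccnd3 was called lower, 1 of 30 beside 2% of all genes. Among 11 cell cycle inhibitors (median -0.28, none called) Cdkn1c stood at -0.99 and Cdkn2b, the inhibitor p15, read 628 and 585 in conditioned medium and 273 and 349 in unconditioned medium, with a mean of 18.4 at time zero (0.96 ± 0.76 between the media, adjusted p = 1.00). Its time zero arrays, at 4.84 (the floor), 5.40, 53.2 and 10.1, entered that estimate of the spread. With only the 24 h groups in the fit Cdkn2b was called higher, 1 of 11 beside 1.68% of all genes. Growth factors and receptors had a median of 0.19 over 28 genes with 0 called: Erbb2 and Erbb4, the neuregulin receptors, stood at -0.85 and 0.81, their ligand Nrg1 at 0.57 and Igf1 at -1.39. Igfbp3 (1.01) was called higher once the 3 arrays of narrow spread were left out, 1 of 28 beside 2.01% of all genes. The immediate early and ERK feedback genes had a median of 0.04 over 26 genes with 0 called, with Fos at 1.23, Junb at 1.08 and Etv1 at -1.30. When the 3 arrays of narrow spread were omitted, Fos and Junb were called higher and Etv1 lower, beside 2.01% and 2% of all genes.

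Time zero arrays show on which side of the starting level each medium lay. The comparisons of the media with time zero share the time zero arrays, and the genes were chosen for their difference between the media, so the values are given side by side as a description. Against time zero 3.24% of all genes were called higher and 0.613% lower in conditioned medium, and 1.07% higher and 0.0904% lower in unconditioned medium. Of the 15 genes higher in conditioned medium, 11 were called above time zero in conditioned medium, and Thbd was also called above it in unconditioned medium. Dclk1 was at 3.27 ± 0.30 in conditioned medium and 0.82 ± 0.30 in unconditioned medium relative to time zero, and Lgals3 at 2.01 ± 0.29 and 0.10 ± 0.29 in the same order of media. Mtrex was not called against time zero in conditioned medium (0.51 ± 0.54) and was below it in unconditioned medium (-3.16 ± 0.54, adjusted p = 0.0099), and Cxcl11, Fam110c and Rhbdl3 were called on neither side.

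Of the 16 lower genes, 11 were called below time zero in conditioned medium, among them Myh3 (-5.31 ± 0.39 in conditioned, -0.41 ± 0.39 in unconditioned medium), Myh2 (-2.95 ± 0.39 in conditioned, 0.99 ± 0.39 in unconditioned medium), Tnni3k (-2.62 ± 0.34 in conditioned, -0.39 ± 0.34 in unconditioned medium) and Perm1 (-4.21 ± 0.37 in conditioned, -1.67 ± 0.37 in unconditioned medium). In 4 others (Tril, Atp12a, Tnnt1 and Septin4) conditioned medium was not called against time zero and unconditioned medium was called above it: Tnnt1 stood at 0.43 ± 0.34 in conditioned medium and 2.88 ± 0.34 in unconditioned medium, and Septin4 at -0.49 ± 0.32 in conditioned medium and 1.56 ± 0.32 in unconditioned medium. Prkag2 was called on both sides (-1.83 ± 0.36 in conditioned, 1.44 ± 0.36 in unconditioned medium), and Eln on neither. A lower value in conditioned medium thus stood for a level under the starting one in some genes and for a level that lacked the increase seen in unconditioned medium in others.

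The 4 arrays at 48 h are separate samples of the same media and gave every one of the 31 genes the same sign, as they did for 66.2% of all genes. At 48 h 6 of the 15 higher genes were called higher (0.1% of all genes) and 5 of the 16 lower genes were called lower (0.0603% of all genes). The 6 were Reg3b, Ppp2r2b, Cyb561, Thbd, Lgals3 and Runx1, and the 5 were Myh3, Myh2, Dhrs7c, Eln and Atp12a. Reg3b read 4782 and 4434 in conditioned medium and 31.4 and 70.8 in unconditioned medium at 48 h (6.43), and Myh3 read 109 and 96.2 in conditioned medium and 3073 and 4441 in unconditioned medium (-5.35). The fitted changes of both were larger in size than at 24 h, and on the unconditioned arrays Myh3 lay above its 24 h values. The difference between the times was called for neither (24 h minus 48 h, -1.89 ± 0.67 for Reg3b and 0.45 ± 0.64 for Myh3).

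The median change of the higher genes was 2.46 at 24 h and 1.82 at 48 h, and that of the lower genes -2.88 at 24 h and -1.55 at 48 h, with the larger change at 24 h in 11 of 15 and 13 of 16. The genes were chosen for their change at 24 h, so these medians are a description. The difference between the times was called for no probe in limma (518 had an unadjusted p under 0.05; smallest adjusted p = 1.00). Klf15 had -3.30 at 24 h and -0.42 at 48 h (unadjusted p = 0.0027 for the difference), where its unconditioned arrays read 46.2 and 72.9. Fn3k had -2.58 at 24 h and -0.35 at 48 h (unadjusted p = 0.0013). Outside the called genes the 48 h arrays are less even: the smallest p for a difference in the other direction belonged to Tmigd1, Calb2, Fmo2, Or1f32 and Yap1, all of which were highest on unconditioned 48 h replicate 2, an array of narrow spread.

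The smaller design, with 1 array of each medium at 24 h, measured 14 of the 31 genes, and all had the same sign, 5 of 5 higher and 9 of 9 lower, as did 66.3% of 4613 genes on both designs. Cyb561 stood at 2.24, Lgals3 at 2.43, Cxcl11 at 2.03, Runx1 at 1.49 and Thbd at 1.16 there. Among the lower genes Myh3 stood at -3.76, Prkag2 at -4.03, Dhrs7c at -3.55, Tnni3k at -2.82 and Klf15 at -1.37. These differences have no replicate and no test. The labels do not say whether the 2 designs hold the same RNA, so the shared signs may not come from separate samples.

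**Figure D4:**
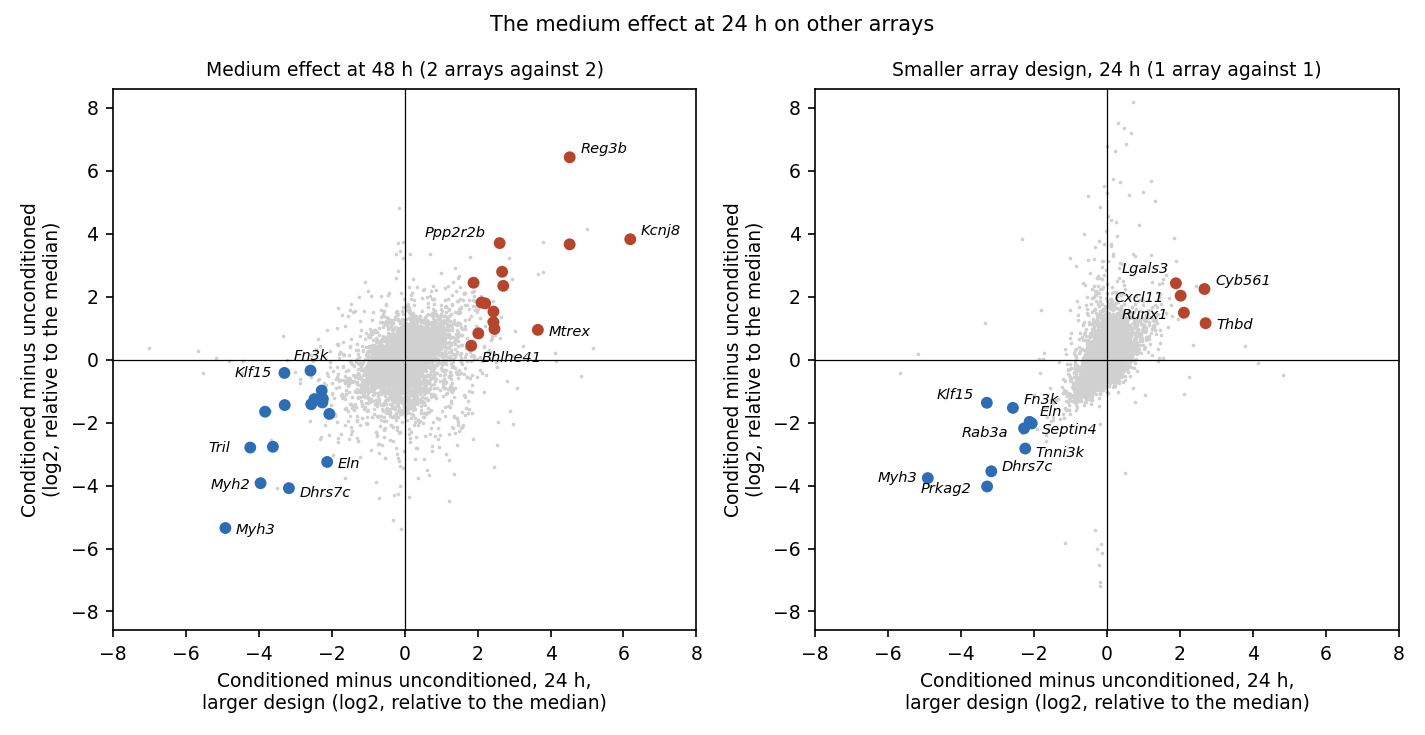
Change between the media at 24 h on the larger design (horizontal axes) against the change between the media at 48 h (left, 2 arrays against 2) and against the 24 h change on the smaller design (right, 1 array against 1), all log2 relative to the median; each grey point is a gene, red and blue points are those called higher and lower at 24 h. All 31 called genes have the same sign on both axes of the left panel, as do all 14 measured ones in the right panel, while the cloud of other genes is broad.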

How the data were processed

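RNA was extracted with Trizol and labelled with a CodeLink reagent kit, per the labels' protocols. The deposited values are linear intensity, 1 table for each array design. The scanner, background correction and normalization are not given in the sources used here; medians that differed between arrays show that no common median was set. Probes were named through the platform annotation, with symbols updated by Entrez ID from RefSeq (GRCr8); of 33849 probes measured on the larger design 16753 had 1 symbol, 165 several and 16931 none.

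Arrays of the larger design were scaled to the median of all their medians (96.8), raised to a floor of 0.05 of it, and log2 was taken of these deposited values. Probes whose mean passed the 30th percentile were tested. A single limma model (version 3.58.1, R 4.3.3) held all 5 groups, with lmFit and with eBayes using a trend on intensity (7 residual and 10.4 prior degrees of freedom), and Benjamini-Hochberg adjustment over 23694 probes. A gene stands by its probe of highest mean, where that probe has 1 symbol. The smaller design was scaled in the same way (floor 15.1) and gave directions only. No difference within the 48 h or time zero samples was analysed here for its own sake.

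The members and the 29 gene lists (918 genes, 689 of them tested) were chosen with earlier results of these data known. Named were all called genes whose arrays did not overlap, in each list the called members and those of smallest p, 11 genes fixed by name (Mki67, Cdk1, Ccnb1, Ccnd1, Cdkn2b, Myh6, Myh7, Nppa, Nppb, Tnnt2, Col1a1) and the smallest p for the difference between the times. Other list members are given because of their role and were chosen after their values were seen. Myh6 was not analysed here. Alternatives were other normalizations, filters, floors, a pseudocount, no trend, array weights, fewer groups and arrays left out. The fit was tested on simulated data. Promoters were read from a RefSeq table. Figures were drawn with matplotlib 3.10.9.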

Additional observations from a re-analysis of the deposited data

Results flagged for a closer look

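Of the 58 probes called at 24 h, 18 had no single gene symbol, 10 higher and 8 lower in conditioned medium, and so are outside the comparison of genes. The probe with the lowest change, 107093, read 7.85 and 5.21 in conditioned medium and 206 and 223 in unconditioned medium (-5.07 ± 0.44, limma adjusted p = 3.1e-05). Among the higher ones, probe 69087 read 1283 and 1427 in conditioned medium and 168 and 194 in unconditioned medium (2.90 ± 0.36, adjusted p = 8.4e-04), and probe 6094, the brightest, read 7600 and 8627 in conditioned medium and 1322 and 1661 in unconditioned medium (2.44 ± 0.40, adjusted p = 0.011). An outlier rule applied to the 4 time zero arrays flagged none of the 31 called genes. With 4 values such a rule can miss an outlying array: Reg3b read 359 on 1 of them, against 134, 127 and 161.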

How the results depend on the processing

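All 58 called probes kept their sign under each alternative in which they were tested; the number of calls did not keep. With quantile normalization 301 probes were called (131 higher, 170 lower; 57 of the 58 among them), with cyclic loess 573 (269 and 304; all 58), with scaling to the 75th percentile 258 (120 and 138; all 58), with array weights 828 (463 and 365; all 58), with only the groups compared 765 (435 and 330; all 58) and without the 3 arrays of narrow spread 828 (435 and 393; all 58). With no filter on level 12 were called (6 and 6; 11 of the 58), with no intensity trend 29 (18 and 11; 23 of the 58) and with a pseudocount of 0.5 of the median 57 (37 and 20; 47 of the 58). Leaving out 1 of the 4 arrays, with the lone array assumed to vary like the other groups, gave 19 to 61 calls, 4 to 35 higher and 12 to 26 lower (12 without conditioned replicate 2, 13 without conditioned replicate 3, 25 without unconditioned replicate 2 and 21 without unconditioned replicate 3 of the 58). The difference between the times was called for 17 probes without the 3 arrays and for 4 to 15 with an array left out. Reg3b, Myh3, Myh2 and Atp12a were called in every alternative, and the cause of the other changes was not tested. Of the genes named, Nppb changed sign, from -0.17 to 0.16 (adjusted p = 0.68) with quantile normalization. No paired analysis was possible because the replicate numbers follow the order of the samples and pair nothing.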

Other observations

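A few called genes are known only through a second probe, chosen here after their values were seen, since their brightest probe was not called. Mgp, matrix Gla protein, an inhibitor of calcification, had a dim probe at 12.9 and 14.7 in conditioned medium and 386 and 124 in unconditioned medium (limma adjusted p = 0.0025), while its bright probe read 3962 and 3840 in conditioned medium and 10653 and 10986 in unconditioned medium (-1.48, adjusted p = 0.29). Ace, angiotensin-converting enzyme, was called on its dimmer probe, at 182 and 191 in conditioned medium and 6.61 and 16.9 in unconditioned medium (4.13 ± 0.62, adjusted p = 0.0053), with 1.22 on the other. Sytl2 (2.41 and 1.95) and the hypoxia-responsive Ndrg1 (2.07 and 1.89) were called higher, and the retinoid receptor Rxrg (-2.63, with -1.73 and -1.81 on its other probes) lower, by 1 probe each with the brightest on the same side. In all, 12 of the 13 genes with a called probe and another tested probe had every other probe on the same side, the exception being Dclk1.

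The class II invariant chain Cd74, a marker of antigen-presenting cells, was at 6.63 and 4.84 in conditioned medium, 51.0 and 80.9 in unconditioned medium and a mean of 228 at time zero (-3.51 ± 0.76, adjusted p = 0.077), and stood at -4.08 at 48 h. Of the 12 tested leukocyte genes 5 were lower in conditioned medium without overlap (Cd74, Cd3e, C1qc, Cd79b and Csf1r) and 1 higher (Was), beside 21.5% and 24.5% of all genes, and none was called in the main limma fit. Cd74 was called lower, 1 of 12, without the 3 arrays of narrow spread (2% of all genes lower). It was also called lower with cyclic loess (1.71% of all genes) and with array weights (1.65%). Cd3e stood at -1.46, C1qc at -1.21, Csf1r at -0.19, Tyrobp at 0.03 and Cd68 at 0.17, while Was stood at 1.81 ± 0.82 (adjusted p = 0.89) at 24 h and 3.27 at 48 h. The untested C1qa and C1qb were at the floor on both conditioned arrays and above it on both unconditioned arrays, and Ptprc was at the floor on both unconditioned arrays alone.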
